A study of Mus musculus with 8 samples.

Results

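Collagen VI was followed through the 3 genes of its common chains, Col6a1, Col6a2 and Col6a3, which were found by name among the 31053 genes of the count matrices at both ages. All 3 were detected at both ages. Collagen VI is a non-fibrillar collagen whose alpha1, alpha2 and alpha3 chains wind into a heterotrimer inside the cell, pair into dimers and tetramers, and leave the cell to form beaded microfilaments. In cartilage and disc it is the defining collagen of the pericellular matrix, the thin shell between a chondrocyte or nucleus pulposus cell and the stiffer matrix outside, and inherited defects in any of the 3 human genes cause muscular dystrophies. The alpha3 chain is the largest, and a fragment of its C-terminal end, endotrophin, is released after secretion.

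The mice were 8 weeks old (8W) or 10 days old (P10), and both ages had the genotype Tagln-CreERt2;R26tdTomato, in which a tamoxifen-inducible Cre driven by Tagln (transgelin, a gene of contractile cells) switches on a tdTomato reporter in the Rosa26 locus. All received tamoxifen on day 5 after birth, so the 2 ages differ in time since labelling as well as in age, and no mice without the alleles or without tamoxifen were analysed here. Whole lumbar (L1 to L6) and tail (T5 to T9) discs were digested together, so levels of the spine cannot be told apart. The study's question was whether cells that expressed Tagln give rise to the nucleus pulposus (NP), the disc's gel-like centre. The labels name 4 samples for each age, yet all cells of an age sit in 1 matrix that does not say which sample a cell came from. Each age therefore counts as 1 library, an effect of age cannot be told apart from one of the library, and ages were compared without a test.

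After filtering, 6342 cells remained at 8W, with a median of 14684 unique molecular identifiers (UMIs, counted transcripts), and 6999 at P10, with a median of 18300. Clustering without the collagen VI genes gave 27 clusters, named "-like" from marker lists that hold no collagen VI gene. Only 12 barcodes occurred at both ages. Doublet calling removed 139 cells at 8W and called 0 at P10, where it did not work, so doublets remain in the P10 values. NP-like cells held 2305 cells at 8W and 304 at P10. They had Krt8 at 2828 CPM at 8W and 3619 CPM at P10, T (brachyury) at 1479 and 1327 CPM and Car3 at 18281 and 21225 CPM in that order of age. Of the 10 NP markers, 6 were at 10 CPM or more at each age. The early notochord gene Noto was at 0 at both ages, and Shh at 1.23 CPM at 8W and 0.748 CPM at P10. Foxa2 was at 2.27 and 5.53 CPM, against 29.5 and 23.8 CPM in chondrocyte-like cells. Chondrocyte-like cells numbered 1300 at 8W, mostly clusters 10, 11 and 26, and 4976 at P10, mostly clusters 1, 2, 5, 8, 9, 13 and 14, so different clusters held this class at each age. Levels are in CPM, the UMIs of a gene summed over a class and scaled to 1000000 gene UMIs in that class. Intervals are 95% intervals, exact except for differences between chain ratios, and cover counting error only, not the spread between mice.

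Col6a1 (ENSMUSG00000001119) and Col6a2 (ENSMUSG00000020241) are neighbours on chromosome 10, at 76708792 to 76726168 and at 76595762 to 76623630, both on the minus strand, with 85161 bases between them (GENCODE positions on GRCm38). Col6a3 (ENSMUSG00000048126) lies apart on the minus strand of chromosome 1, at 90765923 to 90843971. The stretches just upstream of the 3 genes are shown because the members differed unequally between classes below. They are from RefSeq on GRCm38.p6, 5′ to 3′ on the minus strand, at chr10:76726169-76726294 for Col6a1, chr10:76623631-76623880 for Col6a2 and chr1:90843972-90844221 for Col6a3. Each ends at the base before the gene's GENCODE start, and capitals mark the only motif match.
Col6a1: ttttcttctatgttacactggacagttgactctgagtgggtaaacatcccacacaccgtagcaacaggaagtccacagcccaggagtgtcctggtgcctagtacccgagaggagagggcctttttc
Col6a2: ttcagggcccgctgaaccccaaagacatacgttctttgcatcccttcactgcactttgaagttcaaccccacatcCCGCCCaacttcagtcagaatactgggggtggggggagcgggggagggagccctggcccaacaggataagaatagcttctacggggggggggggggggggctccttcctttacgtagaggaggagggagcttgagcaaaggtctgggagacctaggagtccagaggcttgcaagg
Col6a3: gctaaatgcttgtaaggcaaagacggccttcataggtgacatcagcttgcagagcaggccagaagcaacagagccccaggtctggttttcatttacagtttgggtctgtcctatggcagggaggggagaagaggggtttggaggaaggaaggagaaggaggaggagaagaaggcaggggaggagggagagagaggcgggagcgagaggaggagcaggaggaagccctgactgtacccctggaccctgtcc
The Col6a1 stretch held 51.6% G and C, against 59.2% for Col6a2 and 57.2% for Col6a3. Searched on both strands, the windows from 250 bases before to 50 after the RefSeq start held no TATAAA and no CCAAT, motifs present in 13.6% and 37.4% of all 32851 such windows. Col6a2 has 2 such windows, and only the one furthest upstream was searched. GGGCGG, the Sp1-type GC box, matched once, in Col6a2 (35.7% of all windows), and TGANTCA, the AP-1 motif, matched once, in the part of the Col6a1 window that is not printed (7.81% of all windows). A match describes letters, not a site in use.

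All 3 chains were found in every skeletal, fibroblast and mural class, and, among classes with at least 50 cells, their levels were highest in a pair of unnamed 8W clusters and in tendon fibroblast-like cells at P10. At 8W the highest summed level was in cluster 4, which has no class name and is led by Angptl7, Igfbp6, Clec3b, Cilp2 and Prg4 (lubricin), at 7130 CPM (7087 to 7174). Its individual levels were 3214 CPM for Col6a1, 1789 CPM for Col6a2 and 2128 CPM for Col6a3. Cluster 7, also unnamed and led by Cilp, Vcan and Grem1, followed with 6260 CPM, and both clusters had no cell at P10. The P10 counterpart in level was the tendon fibroblast-like class, marked by Tnmd and Thbs4, with 6840 CPM (6797 to 6884), made up of 2889 CPM Col6a1, 2066 CPM Col6a2 and 1886 CPM Col6a3. That class had 1 cell at 8W, so these populations could not be compared between ages.

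Below them at 8W came hypertrophic chondrocyte-like cells with 4655 CPM, chondrocyte-like cells with 2938 CPM, cluster 12 (Ibsp, Myoc, Alpl) with 2756 CPM and NP-like cells with 2145 CPM. At P10 the order was connective fibroblast-like cells with 4089 CPM, mural-like cells with 2964 CPM, hypertrophic chondrocyte-like cells with 2751 CPM, chondrocyte-like cells with 1949 CPM and NP-like cells with 1937 CPM. Of these neighbours, only chondrocyte-like and NP-like cells at P10 had overlapping counting intervals (1941 to 1958 CPM and 1904 to 1971 CPM). NP-like cells thus had a lower level than the other skeletal and connective classes at 8W except osteoblast-like cells (914 CPM), and a level close to that of chondrocyte-like cells at P10, yet 98.4% of them had at least 1 collagen VI UMI at 8W and 96.4% at P10.

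Blood-derived, endothelial-like and Schwann-like cells had low values. Macrophage-like cells, which are not known as a main source of collagen VI, had 157 CPM at 8W and 350 CPM at P10, a mean of 1.22 and 2.46 UMIs per cell, and a median per-cell level of 0 at both ages. Their median depth was 6938 UMIs at 8W and 5691 at P10, and 40.3% of them had a collagen VI UMI at 8W and 46.3% at P10, which is the background for any share of cells with a UMI here. Neutrophil-like cells at P10 read 1020 CPM, but 94.9% of their collagen VI UMIs sat in the 17 of 109 cells that also carried at least 10 UMIs of another class's markers, and the other cells averaged 0.348 UMIs. In the same way, mixed cells held 77.7% of the collagen VI UMIs of endothelial-like cells at 8W and 95.6% at P10, and 78.4% of those of P10 Schwann-like cells. Endothelial-like cells free of such markers averaged 4.08 UMIs per cell at 8W and 1.17 at P10. In NP-like and chondrocyte-like cells mixed cells held between 7.41% and 12.5% of the UMIs.

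**Figure D1:**
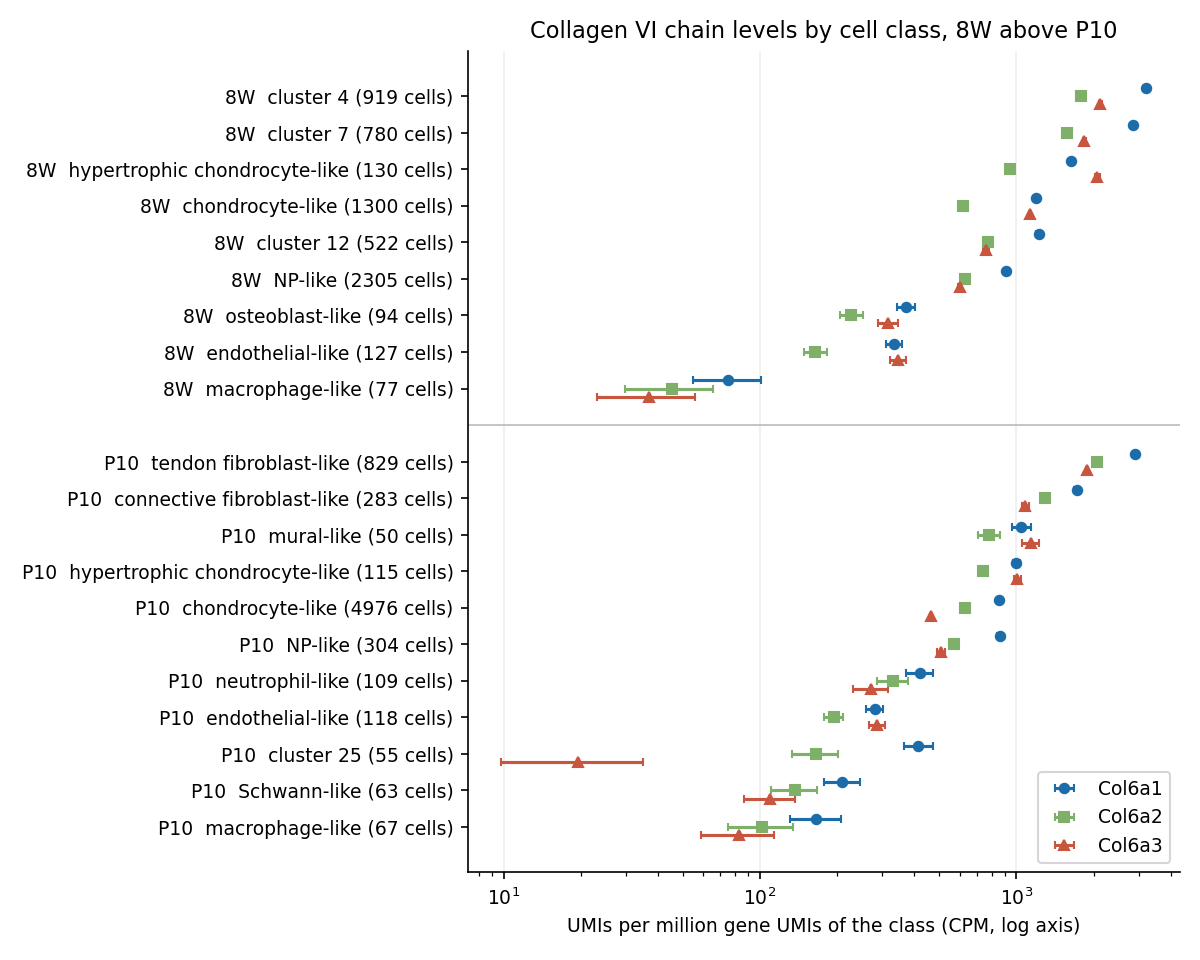
Levels of Col6a1 (circles), Col6a2 (squares) and Col6a3 (triangles) in CPM on a log axis for each class with at least 50 cells, 8W above P10, with exact Poisson 95% intervals that cover counting error only. Col6a1 is the highest chain in most rows, Col6a3 reaches or passes it in hypertrophic chondrocyte-like, mural-like and endothelial-like cells, and P10 cluster 25 has almost no Col6a3.

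Thinned to 2000 UMIs per cell, which removes depth, detection of all 3 chains in the same cell ordered the 8W classes as the levels did. It reached 89.0% of cluster 4 cells (901 cells deep enough) and 82.9% of cluster 7 cells at 8W, and 90.3% of tendon fibroblast-like cells (817 cells) at P10. In hypertrophic chondrocyte-like cells it was 74.4% at 8W and 56.3% at P10. Chondrocyte-like cells had all 3 chains in 45.8% of 1289 thinned cells at 8W and in 24.7% of 4960 at P10, and NP-like cells in 30.3% of 2208 at 8W and in 22.7% of 295 at P10. The background in macrophage-like cells was 1.41% at 8W and 1.72% at P10. Without thinning, Col6a1 alone was seen in 93.6% of NP-like cells at 8W and 92.1% at P10, and in 20.8% and 29.9% of macrophage-like cells at the same ages.

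The Col6a3 share of several classes was close to that of NP-like cells, with exceptions at both ends. In the protein the chains occur in equal numbers, but 3′ UMI counts depend on how well each transcript is captured, so a share was compared between classes and not read as a stoichiometry. In NP-like cells Col6a3 made up 28.0% of the summed UMIs at 8W (27.7 to 28.3%) and 26.2% at P10 (25.5 to 27.0%), Col6a2 made up 29.4% and 29.3%, and Col6a1 the rest. Similar Col6a3 shares were found in cluster 4 at 8W (29.8%), cluster 7 at 8W (29.3%), cluster 12 at 8W (27.6%), and in tendon fibroblast-like (27.6%) and connective fibroblast-like cells (26.5%) at P10. Col6a2 shares in the same groups were less alike. They were 25.1% in clusters 4 and 7, 28.1% in cluster 12, 30.2% in tendon fibroblast-like and 31.5% in connective fibroblast-like cells. Osteoblast-like cells had a Col6a3 share of 34.5% at 8W, and chondrocyte-like cells 38.5% at 8W and 23.7% at P10.

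Hypertrophic chondrocyte-like cells, marked by Col10a1 and Ihh, had the highest Col6a3 share of the classes with 50 or more cells at 8W, 44.5% (43.7 to 45.3%), and 36.7% at P10 (35.8 to 37.6%). This rank at 8W depended on the cells taken into the class: at a clustering resolution of 2 the share was 35.8%, with a doublet score limit of 0.25 it was 36.9% and with a stricter cell filter 36.4%, against 38.5%, 38.3% and 38.4% in chondrocyte-like cells under the same settings. With the class as first formed, Col6a3 was at 2071 CPM against 1640 CPM for Col6a1 at 8W, and at 1010 CPM against 1000 CPM at P10. Mural-like cells, which wrap small vessels, had 38.3% at P10, with Col6a3 at 1136 CPM, Col6a1 at 1046 CPM and Col6a2 at 783 CPM over 50 cells. Of these, 8 mixed cells held 41.0% of the collagen VI UMIs, and without them the share was 42.4% (39.2 to 45.6%) and the level 2865 CPM. Endothelial-like cells read 41.0% at 8W and 37.6% at P10. Most of these UMIs lay in the mixed cells named above, and without them the share was 34.1% at 8W (29.5 to 38.9%) and 43.2% at P10 (32.7 to 54.2%), the other way round between ages. The mural marker Rgs5 was at 1448 CPM at 8W and 1137 CPM at P10 over all cells of this class. It was among the markers by which mixed cells were found, and its own part was not tested.

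At the other end, cluster 25 at P10 had Col6a1 at 415 CPM and Col6a2 at 165 CPM but Col6a3 at only 19.5 CPM (9.73 to 34.9), a Col6a3 share of 3.25% (1.64 to 5.75%). Its 55 cells are led by Cdh15, Des and Msc, and carried the muscle stem and precursor cell genes Myod1 at 110 CPM and Pax7 at 108 CPM. Of the other muscle markers, Ckm and Myh4 of mature muscle were at 0, but Acta1 was at 49.6 CPM. Of these cells, 92.7% had a Col6a1 UMI and 12.7% a Col6a3 UMI, against 17.9% with a Col6a3 UMI among P10 macrophage-like cells, so the Col6a3 share of cells was at the background. Their median depth was 9203 UMIs, above that of the macrophage-like cells. Muscle was trimmed from the discs before digestion, per the series' design text, and the cluster had 2 cells at 8W.

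**Figure D2:**
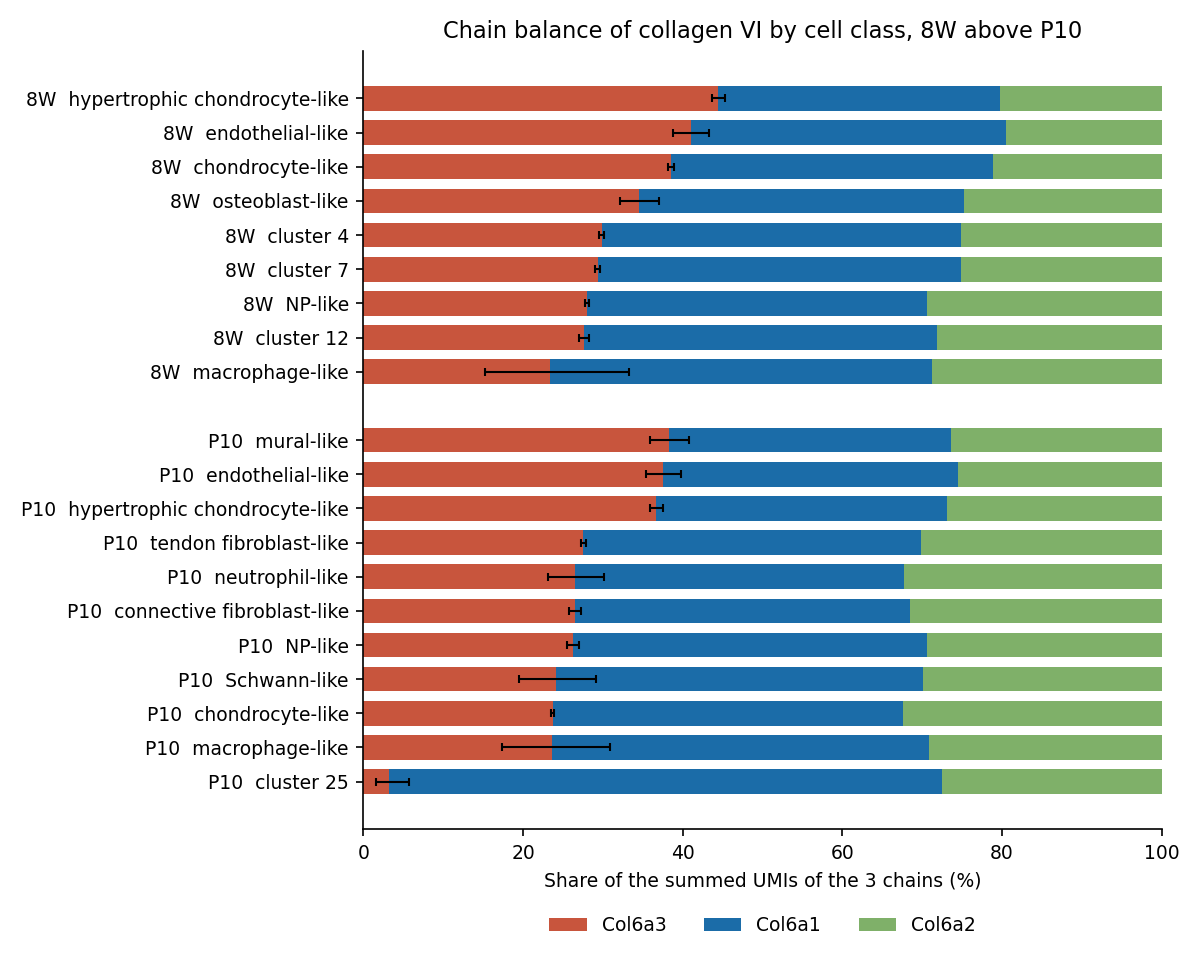
Share of the summed UMIs of the 3 chains taken by Col6a3 (left), Col6a1 (middle) and Col6a2 (right) in each class with at least 50 cells, in percent, 8W above P10, ordered by the Col6a3 share within each age. Black bars are exact binomial 95% intervals of the Col6a3 share, which runs from 44.5% in hypertrophic chondrocyte-like cells at 8W down to 3.25% in cluster 25 at P10.

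Between ages, the difference in chondrocyte-like cells was unequal between chains. Col6a3 was at 1131 CPM at 8W against 462 CPM at P10, a log2 ratio of 1.29 (1.27 to 1.31), while Col6a1 was at 1188 against 856 CPM (0.47) and Col6a2 at 620 against 631 CPM (-0.03). The total was 2938 CPM at 8W against 1949 CPM at P10, a log2 ratio of 0.59 (0.58 to 0.60). Of the 3 members 1 was past 2-fold higher at 8W, where 25.9% of all 12644 genes measured in this class were, and none was past 2-fold lower, where 5.81% were. The median gene had a log2 ratio of 0.47. Relative to that median gene, Col6a1 was level (-0.00), Col6a2 lower (-0.50) and Col6a3 higher (0.82). The count of members is therefore near the background, whereas the spread between chains does not depend on the scale.

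The ratio of Col6a3 to Col6a1 was higher at 8W by 0.82 on the log2 scale (0.79 to 0.85) in these cells, and that of Col6a2 to Col6a1 was lower, with a log2 difference of -0.50 (-0.53 to -0.47). The Col6a2 to Col6a1 difference was not particular to them. It was -0.36 (-0.46 to -0.27) in hypertrophic chondrocyte-like cells, but 0.06 (-0.002 to 0.12) in NP-like cells. Endothelial-like cells read -0.49 (-0.73 to -0.24). Mixed cells held 77.7% of their collagen VI UMIs at 8W and 95.6% at P10, so this value is not independent of other classes. In chondrocyte-like cells the Col6a3 share was 38.5% at 8W against 23.7% at P10. It separated the clusters by age: it was 35.7% in cluster 10, 39.3% in cluster 11 and 46.2% in the cycling cluster 26 (47 cells) at 8W, and at P10 it ran from 19% in cluster 1 (Lox, Omd, A2m) to 30.1% in the cycling cluster 13. No P10 cluster of the class reached the lowest 8W one. Within cells with at least 30 collagen VI UMIs, the Col6a3 share had a median of 38.4% over 810 cells at 8W (10th to 90th percentile 25.8 to 51.3%) and 22.4% over 2125 cells at P10 (11.8 to 35.5%), so single cells of both ages overlapped.

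Col6a2 was highest in relation to the others in P10 cluster 1, with 827 CPM against 976 CPM for Col6a1 and 423 CPM for Col6a3. Cluster 14, led by Gdf5, Rbp4 and Barx1 and with 319 cells at P10, carried 6416 CPM, more than any other chondrocyte-like cluster of either age. The other P10 clusters of the class with at least 50 cells ran from 1174 CPM in cluster 5 to 2226 CPM in cluster 1. Left out after its values were seen, cluster 14 moved the log2 ratio of the total between ages to 0.92 and that of Col6a2 to 0.35, but left the Col6a3 to Col6a1 ratio at 0.83. The direction of the small Col6a2 difference thus turned without this cluster, as it did in cells of 10000 to 20000 UMIs (0.26), and that of Col6a3 against Col6a1 did not.

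Other marker lists moved with age in the chondrocyte-like cells. The 13 chondrocyte markers summed to 80987 CPM at 8W against 109393 CPM at P10, all 13 being at 10 CPM or more at both ages, with Col2a1 at 39199 against 72677 CPM. The 8 hypertrophic markers summed to 2033 against 965 CPM, with 7 of 8 at 10 CPM or more at both ages and Col10a1 at 20.6 against 34.6 CPM. The 9 tendon fibroblast markers summed to 3613 against 7852 CPM, with 4 of 9 and 6 of 9 at 10 CPM or more and Tnmd at 4.29 against 75.2 CPM. Their part in the chain balance was not tested. Without cells that carried markers of another class the Col6a3 to Col6a1 difference was 0.83, and with 10000 to 20000 UMIs per cell only it was 0.77.

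In hypertrophic chondrocyte-like cells, all 3 chains were higher at 8W. Their log2 ratios were 0.71 (0.66 to 0.77) for Col6a1, 0.35 (0.28 to 0.42) for Col6a2 and 1.04 (0.98 to 1.09) for Col6a3, at a median gene of 0.12. Past 2-fold higher was 1 of 3 members, where 14.4% of all 6242 genes were, and past 2-fold lower none, where 8.03% were. The 1 past it was Col6a3, whose log2 ratio was 0.91 relative to the median gene, 0.60 at a clustering resolution of 2 and 0.47 with a doublet score limit of 0.25, so this call depended on the scale and on the cells taken. The total was 4655 CPM at 8W against 2751 CPM at P10, a log2 ratio of 0.76. The Col6a3 to Col6a1 ratio was higher at 8W by 0.32 (0.24 to 0.40) over 130 cells at 8W and 115 at P10. This value depended on which cells were taken into the class: clustering at a resolution of 2 gave 554 cells and turned it to -0.19, and a resolution of 0.5 gave 374 cells and 0.54. The 7 osteoblast markers summed to 4015 CPM at 8W against 502 CPM at P10 in this class, with 6 of 7 and 7 of 7 at 10 CPM or more and Bglap at 159 against 35.4 CPM, and their part was not tested. Cells carrying markers of another class held 46.6% of its collagen VI UMIs at 8W against 17.8% at P10, and without them the log2 ratio of the total was 0.70.

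Set against the chondrocyte-like cells of the same age, hypertrophic chondrocyte-like cells had more Col6a3 at both ages. The log2 ratio was 0.87 at 8W (2071 against 1131 CPM) and 1.13 at P10 (1010 against 462 CPM), where those of Col6a1 were 0.47 and 0.22 and those of Col6a2 0.61 and 0.23. No member was past 2-fold higher at 8W, where 3.61% of genes were, and Col6a3 was at P10, where 8.39% were.

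NP-like cells showed smaller differences between ages than chondrocyte-like and hypertrophic chondrocyte-like cells. Col6a1 was at 914 CPM at 8W (905 to 923) against 860 CPM at P10 (838 to 883), a log2 ratio of 0.09. Col6a2 was at 630 against 568 CPM (0.15) and Col6a3 at 601 against 508 CPM (0.24). The total was 2145 CPM at 8W against 1937 CPM at P10, a log2 ratio of 0.15 (0.12 to 0.17). None of the 3 members was past 2-fold, where 15% of the 11320 genes measured were higher and 2.77% lower. The median gene had a log2 ratio of 0.35, and relative to it the total was lower at 8W by a log2 value of -0.21, so the direction of this small difference turns with the scaling. The Col6a3 to Col6a1 ratio was higher at 8W by 0.15 (0.09 to 0.22), but it was -0.17 (-0.39 to 0.06) after thinning to 2000 UMIs.

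**Figure D3:**
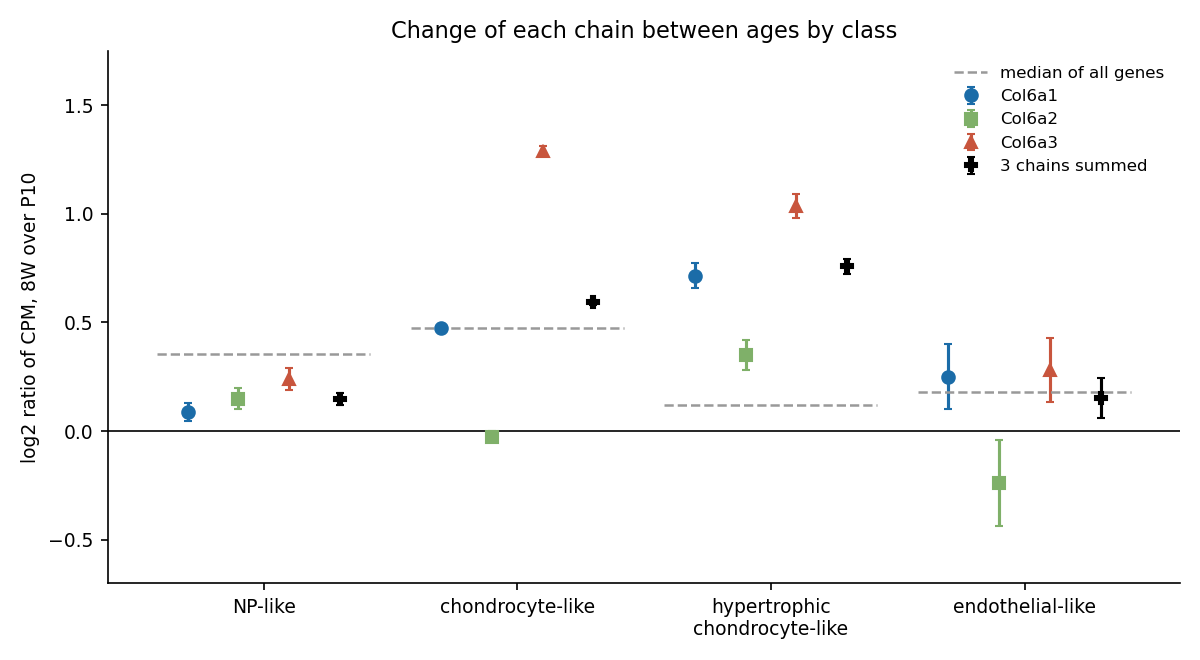
log2 ratio of CPM, 8W over P10, for each chain and for the 3 chains summed in 4 classes, with exact 95% intervals for counting error, and the median gene of each class as a dashed line. Col6a3 stands above the other chains in chondrocyte-like (1.29) and hypertrophic chondrocyte-like cells (1.04), and all values of NP-like cells lie between 0.09 and 0.24, below the median gene.

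In endothelial-like cells the log2 ratio of the total between ages was 0.15 (0.06 to 0.25), with 844 CPM at 8W against 759 CPM at P10. Col6a2 was the exception, at 164 against 194 CPM (-0.24). No member was past 2-fold, where 6.64% of genes were higher and 2.7% lower. At 10000 to 20000 UMIs per cell the total turned to -0.38. Without the cells that carried markers of another class the log2 ratio of the total was 1.71. Macrophage-like cells had a total of 157 CPM at 8W against 350 CPM at P10 (-1.15), from 94 and 165 UMIs in all. The 1 member with enough UMIs, Col6a1, was past 2-fold lower there (-1.13), where 4.04% of genes were and 9.65% were past 2-fold higher. With each age clustered on its own the total of this class was 0.39, so its direction depended on the clustering, and cells with markers of another class held 62.8% of its UMIs at 8W against 80% at P10.

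At 8W the same NP-like class held a 2-fold contrast within itself. Cluster 0, led by Sostdc1, Cck and Nrn1 with Krt8 and T among its top genes, had 2467 CPM (2449 to 2485) over 1234 cells, and cluster 3, led by Inmt, Irf7 and Car3, had 1082 CPM (1062 to 1101) over 937 cells. The 3 chains differed alike, with log2 ratios of cluster 0 over cluster 3 of 1.24 for Col6a1, 1.22 for Col6a2 and 1.08 for Col6a3. All 3 members were past 2-fold higher, where 6.01% of genes were and 1.96% were past 2-fold lower, at a median gene of 0.06. The clusters were formed from other genes of the same cells and the collagen VI genes took no part in forming them.

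Median depth was 19657.5 UMIs in 8W cluster 0 and 10012 in cluster 3, and the contrast held at matched depth. In cells under 10000 UMIs cluster 0 had 2515 CPM against 1138 CPM in cluster 3, from 10000 to 20000 UMIs 2205 against 1059 CPM, and from 20000 UMIs up 2545 against 1077 CPM. The chain balance of the clusters was close, with Col6a3 at 26.8% of the UMIs in cluster 0 and 28.8% in cluster 3. The cycling NP-like cluster 19 (Mki67, Top2a) had 2648 CPM at 8W and 2624 CPM at P10, with a Col6a3 share of 35.6% at 8W and 28.0% at P10 over 131 and 42 cells.

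The P10 NP-like cells were a different mixture: 202 of 304 were in cluster 18, led by Myl7, Tagln and Acta2, and had 1275 CPM, while the 54 in cluster 0 had 2586 CPM (2510 to 2663). The same cluster 0 at 8W was thus 2467 CPM against 2586 CPM at P10, where the Col6a3 share was 26.8% at 8W against 21.7% at P10.

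**Figure D4:**
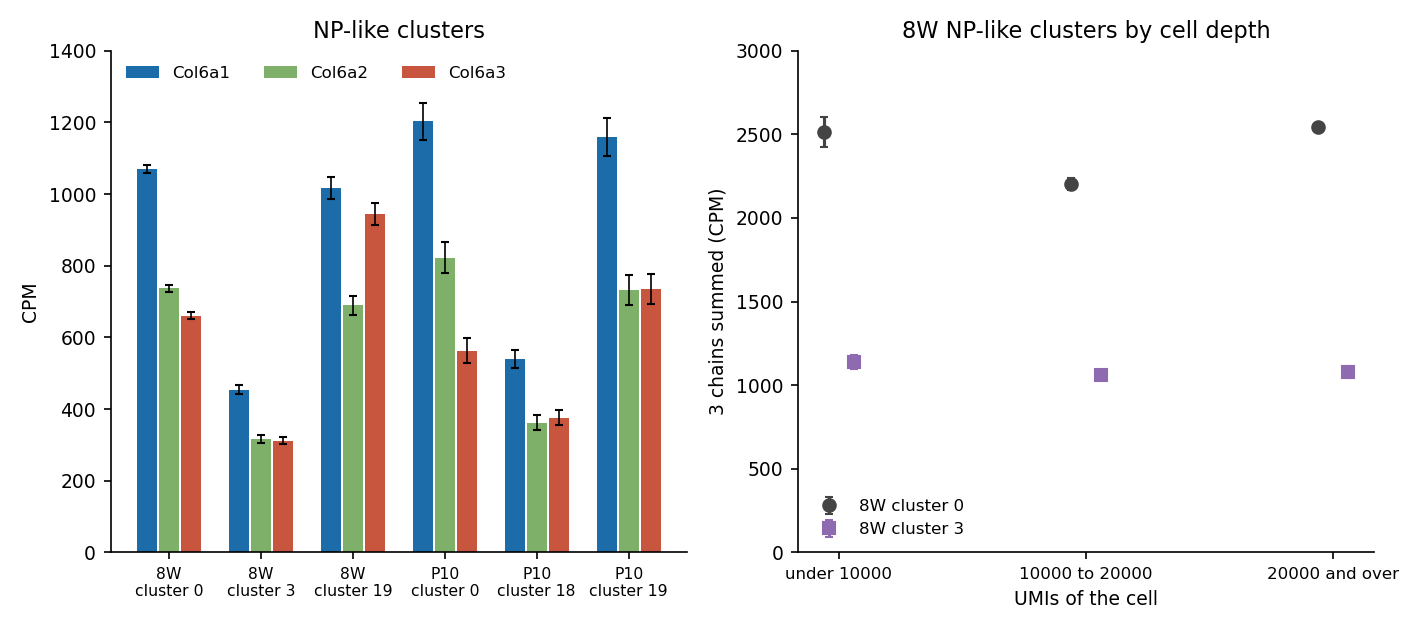
Left, CPM of Col6a1, Col6a2 and Col6a3 in the NP-like clusters at 8W and at P10 with Poisson 95% intervals; right, the 3 chains summed in 8W clusters 0 and 3 by the number of UMIs of the cell. Cluster 0 lies at 2205 CPM or above and cluster 3 at 1138 CPM or below in each depth band, and at P10 cluster 18 lies at about the level of 8W cluster 3.

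Cells with the lineage readout, taken as at least 10 UMIs of the WPRE4 sequence counted in the exogenous matrix, differed little. At 8W the 1290 NP-like cells with it had 1995 CPM and the 1015 with fewer UMIs of it, called without it here, had 2366 CPM, a log2 ratio of -0.25 (-0.26 to -0.23). At P10 the 203 cells with it had 1849 CPM and the 101 without it 2162 CPM, a log2 ratio of -0.23 (-0.28 to -0.17). No member was past 2-fold at 8W, where 0.117% of genes were higher and 0.792% lower, or at P10, where 0.435% were higher and 0.151% lower. Of the chains Col6a3 differed most, with -0.34 at 8W and -0.40 at P10. Within 8W clusters the difference had the same direction (2381 against 2582 CPM in cluster 0, 1056 against 1147 CPM in cluster 3, 2440 against 2816 CPM in cluster 19). In P10 cluster 0 it also had this direction, with 2357 CPM in 27 cells with the readout against 2944 CPM in 27 without it. In P10 cluster 18 it was turned round, with 1356 CPM in 148 cells with the readout against 986 CPM in 54 cells without it, and median depths of 15939 and 11763 UMIs.

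NP-like cells were also set against chondrocyte-like cells of the same age. At 8W Col6a2 was nearly equal (630 in NP-like cells against 620 CPM, log2 ratio 0.02), Col6a1 lower in NP-like cells (914 against 1188 CPM, -0.38) and Col6a3 lower still (601 against 1131 CPM, -0.91). At P10 Col6a1 was equal within counting error (860 against 856 CPM, 0.01), Col6a2 slightly lower in NP-like cells (568 against 631 CPM, -0.15) and Col6a3 slightly higher (508 against 462 CPM, 0.14). No member passed 2-fold at either age, where 15.6% of genes at 8W and 15.7% at P10 were lower in NP-like cells and 20.1% and 20.8% higher.

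**Figure D5:**
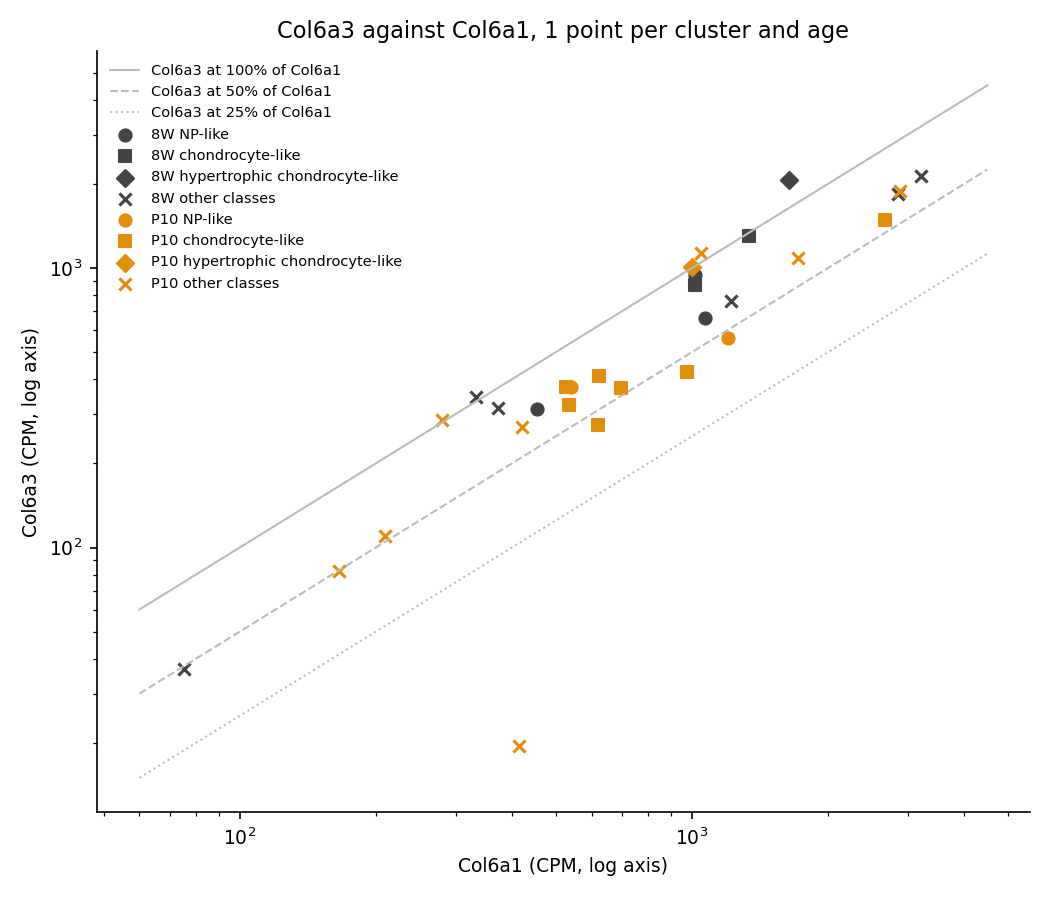
Col6a3 against Col6a1 in CPM on log axes, 1 point for each cluster and age with at least 50 cells, coloured by age and marked by class; the grey lines mark equal levels and fixed lower ratios of Col6a3 to Col6a1. The 8W chondrocyte-like clusters lie nearer to the line of equal levels than the P10 ones, hypertrophic chondrocyte-like cells lie on or above it, and P10 cluster 25 lies far below all others at 415 CPM Col6a1 and 19.5 CPM Col6a3.

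The 3 further alpha chains, which can take the place of alpha3 in the trimer, were rare. Col6a6 was found mainly in P10 connective fibroblast-like cells, with 409 UMIs in 145 of 283 cells, or 119 CPM (108 to 131), against 1083 CPM of Col6a3. In P10 cluster 25, the cells with almost no Col6a3, it had 33 UMIs in 22 of 55 cells, or 58.5 CPM (40.3 to 82.2). More UMIs of Col6a6 than of Col6a3 were thus counted in that cluster (58.5 against 19.5 CPM). In NP-like cells 0 UMIs of Col6a6 were counted at either age, which allows up to 0.0682 CPM at 8W and 0.449 CPM at P10. Col6a4 had 12 UMIs in 11 of 50 P10 mural-like cells (21.9 CPM) and Col6a5 no more than 10 UMIs in any class.

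Over 16 named class and age units, the chains had the same pattern of level. The Pearson correlation of log2(CPM + 10) was 0.99 between Col6a1 and Col6a2, 0.97 between Col6a1 and Col6a3 and 0.94 between Col6a2 and Col6a3. Among 10276 genes, Col6a2 ranked first by likeness to Col6a1 and Col6a1 first to Col6a2, and Col6a1 also ranked first to Col6a3. The gene outside the family with the most similar pattern to Col6a1 was Loxl2, a collagen and elastin cross-linking enzyme (0.96), which also reached 0.97 with Col6a2 and 0.90 with Col6a3. It was at 488 CPM in P10 tendon fibroblast-like cells, at 214 CPM at 8W and 172 CPM at P10 in NP-like cells, and at 15.1 CPM at 8W and 25.4 CPM at P10 in macrophage-like cells. In the clusters left out, Loxl2 was at 378 CPM in cluster 4, 197 CPM in cluster 7 and 181 CPM in cluster 12. It was at 88.6 CPM in cluster 25. Cluster 7 thus had less Loxl2 than 8W NP-like cells but a higher collagen VI level. Next to Col6a1 came Ikbip (0.91), the Golgi trafficking GTPase Arf4 (0.90), P3h4 (0.88) and Crtap (0.88). Crtap is part of the collagen prolyl 3-hydroxylation machinery. The same genes followed for Col6a2, while Arf4 (0.92), Cacna2d1 (0.88) and Nucb1 (0.86) were among those of Col6a3. The units share libraries, so these values describe the 2 libraries only.

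Genes whose products bind collagen VI outside the cell were higher or lower at 8W depending on the gene. Of 16 pericellular matrix partners, 12 had enough UMIs in NP-like cells; 2 were past 2-fold higher at 8W and 4 past 2-fold lower, against 15% and 2.77% of all genes, and the median log2 ratio was 0.58 against 0.35 for all genes. The count of higher partners is near that share. Biglycan (Bgn), a small proteoglycan that binds collagen VI and helps its microfilaments form networks, was at 341 CPM at 8W against 876 CPM at P10 (-1.36). Decorin (Dcn), its close relative, was at 12.1 against 47.8 CPM (-1.99). The part of RNA from other classes, and of the doublets left in at P10, in these levels was not tested. Matrilin 3 (Matn3), which links such complexes to other collagens, was at 25.5 against 63.5 CPM (-1.31), and nidogen 1 (Nid1) at 6.98 against 16.7 CPM (-1.26). Higher at 8W were nidogen 2 (Nid2, 92.4 against 33.3 CPM, 1.47) and tenascin X (Tnxb, 293 against 112 CPM, 1.39). Fibronectin (Fn1) was at 11312 against 5834 CPM (0.96) and fibromodulin (Fmod) at 2749 against 1685 CPM (0.71).

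Chondrocyte-like cells shared some of this. All 16 partners were measured there, 6 past 2-fold higher at 8W and 5 lower, against 25.9% and 5.81% of all genes, with a median of -0.09 against 0.47 for all genes. Dcn was at 93.8 CPM at 8W against 1246 CPM at P10 (-3.73) and Matn3 at 2279 against 842 CPM (1.44), opposite in direction to NP-like cells. Matn1 and Matn3 also served as chondrocyte markers and Fmod as a tendon fibroblast marker, so their levels between classes are not independent of the class names. In 8W NP-like cells, cluster 0 was higher than cluster 3 in 7 of 12 measured partners past 2-fold, against 6.01% of all genes, and lower past 2-fold in none, against 1.96%. Higher were, among others, Bgn (400 against 98.2 CPM) and Fn1 (13306 against 4693 CPM), while Tnxb (294 against 319 CPM) was not. Unlike the collagen VI genes, the partner genes were not taken out before clustering. Their count between these clusters is therefore not independent of how the clusters were formed, and only describes them.

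Cell surface proteins that bind collagen VI had 2 of 7 measured members past 2-fold higher at 8W in NP-like cells and 0 lower, against 15% and 2.77% of all genes, a count near the background, with a median of 0.47 against 0.35 for all genes. Itga10, the alpha10 subunit of the main collagen-binding integrin of chondrocytes, was at 42.2 CPM at 8W against 7.48 CPM at P10 (2.50), and Itga11 at 3.96 against 1.64 CPM (1.27). Its partner subunit Itgb1 was at 439 against 317 CPM (0.47), Itga1 at 73.2 against 62.9 CPM (0.22), and Cspg4, the proteoglycan NG2 that binds collagen VI directly, at 324 against 174 CPM (0.89). In chondrocyte-like cells Itga10 was at 84.8 against 34.2 CPM (1.31) and Itga1 at 9.38 against 23.3 CPM (-1.32).

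The median of the enzymes that modify and fold collagen chains lay below that of all genes in every class compared between ages, though single members did not. It was -0.50 against 0.47 in chondrocyte-like cells and -0.67 against 0.18 in endothelial-like cells. In macrophage-like cells, with 3 of 9 measured, it was -0.03 against 0.11. In NP-like cells none of the 9 was past 2-fold, where 15% of all genes were higher and 2.77% lower, and the median log2 ratio was -0.31 against 0.35 for all genes. The collagen chaperone Serpinh1 (HSP47) was at 217 CPM at 8W against 409 CPM at P10 (-0.91), the disulfide isomerase P4hb at 355 against 439 CPM (-0.31), the prolyl isomerase Ppib at 336 against 393 CPM (-0.23), and the lysyl hydroxylase Plod2 at 152 against 134 CPM (0.18). In hypertrophic chondrocyte-like cells, 4 of 9 were past 2-fold lower and 1 higher at 8W, against 8.03% and 14.4% of all genes, with a median of -0.95 against 0.12. Serpinh1 there was at 476 against 1286 CPM (-1.43) and Plod2 at 644 against 308 CPM (1.06). These genes serve all collagens, so the list is not particular to collagen VI.

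Of 6 proteases known to act on collagen VI or on its alpha3 chain, 4 were measured in NP-like cells. Gelatinase A (Mmp2) was at 1.05 CPM at 8W against 27.5 CPM at P10 (-4.72), and was the only member past 2-fold. Of all genes in these cells, 15% were past 2-fold higher at 8W and 2.77% past 2-fold lower. Htra1, a secreted serine protease, was abundant, at 3452 against 2008 CPM (0.78), Bmp1, which trims procollagens, was at 45.5 against 52.2 CPM (-0.20), and Mmp14 at 37.7 against 26.8 CPM (0.49). In chondrocyte-like cells Mmp2 was at 29.9 against 259 CPM (-3.12). Markers of other classes also differed between ages in NP-like cells. Tnmd was at 1.98 CPM at 8W against 23.0 CPM at P10, and the endothelial marker Pecam1 at 18.7 against 0.897 CPM. The part of RNA from other classes, and of the doublets left in at P10, in the Mmp2 levels was not tested.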

How the data were processed

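Dissociated whole discs of Tagln-CreERt2;R26tdTomato mice were profiled by droplet single-cell RNA sequencing. Per the file headers and the submitters' processing notes, the authors made the matrices with Cell Ranger 3.1.0 on mm10 (GRCm38). Those notes also name Seurat 3, but not its use. In the deposited matrices each value is a raw UMI count, of 31053 genes in called cells or of exogenous sequences such as WPRE4. The other deposited files hold other content, namely the names of barcodes and genes. The 8W library had 7597 barcodes and 115097999 UMIs, the P10 library 7690 barcodes and 143203550 UMIs.

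Barcodes with fewer than 500 genes, fewer than 1000 UMIs or more than 15% mitochondrial UMIs were dropped, and 6481 remained at 8W and 6999 at P10. Scrublet in Scanpy 1.11.5 set doublet thresholds of 0.253 at 8W and 0.627 at P10. The collagen VI genes were taken out before both libraries were clustered together (2000 variable genes, 30 components, 15 neighbours, Leiden resolution 1). A class name needed at least 3 markers, and at least 50% of its list, at 2-fold and in 25% of cells, or 8 markers in 50% of cells for chondrocytes. The 10 leading genes were also checked. A mixed cell carried at least 10 UMIs, summed over a separate short marker list of another class. The cartilage list was Cnmd, Matn1, Matn3 and Col10a1, and both chondrocyte classes shared it, as both fibroblast classes shared 1 list. This limit was not scaled to depth, and mixed cells were deeper. Their median was 53104 UMIs in 8W NP-like cells, against 15460 in the class, and 30043 against 13132 in 8W endothelial-like cells.

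CPM, shares and ratios came from summed counts, with exact Poisson, binomial (Clopper-Pearson) and conditional binomial 95% intervals (SciPy 1.17.1); those of a ratio between 2 chains compared between ages are normal approximations on the log scale. With 1 library per age no p-value was computed from cells. Genes entered a comparison with at least 100 UMIs, and past 2-fold is a description of size. The ratio step was tested on simulated data. Beside a count of 0 stands the level of 3 counts as its upper limit. Intervals and such limits cover counting error only.

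The members, lists, markers and the WPRE4 limit of 10 UMIs were chosen with earlier results of these data known. Named genes were the 3 members and the other alpha chains, of each list the 4 with the most UMIs and any past 2-fold between ages in NP-like cells, and the genes most alike in level. Others, such as cluster leading genes and the examples of Matn3 and Itga10 in chondrocyte-like cells, were named after their values were seen. Alternatives were other cell filters, doublet limits, clusterings, scalings and depths.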

Additional observations from a re-analysis of the deposited data

Results flagged for a closer look

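For the same contrast between ages, a chain or the total had a lower level at 8W in some classes and a higher one in others, and whether the classes differ from each other was not tested. Col6a2 in chondrocyte-like cells had a log2 ratio of -0.026, 8W over P10, while it was positive in NP-like and hypertrophic chondrocyte-like cells. Col6a2 in endothelial-like cells had a log2 ratio of -0.24. It was lower in macrophage-like cells as well, at 45.2 CPM at 8W against 102 CPM at P10. In macrophage-like cells Col6a1 had a log2 ratio of -1.13 and the total -1.15, from 94 UMIs at 8W and 165 UMIs at P10, while both were positive in the other 4 classes compared. Each of the 4 negative log2 ratios given here changed sign under at least 1 alternative given under the processing.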

How the results depend on the processing

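No paired analysis was possible because each age has 1 matrix with no map from its cells to the 4 samples, and for the same reason no sample could be left out in turn. Counting error and depth limit the small classes, while in NP-like and chondrocyte-like cells the choice of cells and scale moved values by more than their counting intervals. Of 102 alternative values for the 10 main ratios, 53 stayed within their counting interval and 44 moved out of it. The other 5 changed sign where the main interval lay clear of 0. Where the main interval held 0, a change of sign was not counted apart. The Col6a3 to Col6a1 ratio of endothelial-like cells, 0.03 (-0.18 to 0.24), was such a case and fell as low as -0.94. The Col6a3 to Col6a1 ratio between ages in chondrocyte-like cells stayed between 0.77 and 0.86 under all of its alternatives. The cause of each change below was not tested. All values are log2 ratios, 8W over P10 unless they concern the lineage readout.

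Relative to the median gene, the total was -0.21 in NP-like, 0.12 in chondrocyte-like, 0.64 in hypertrophic chondrocyte-like and -0.025 in endothelial-like cells, and in NP-like cells Col6a1 was -0.27, Col6a2 -0.21 and Col6a3 -0.11, with Col6a1 at -0.0027 in chondrocyte-like cells. With means of per-cell CPM the total was 0.24 in NP-like, 0.64 in chondrocyte-like and 0.69 in hypertrophic chondrocyte-like cells, and Col6a2 0.074 in chondrocyte-like cells. Thinned to 2000 UMIs, the Col6a3 to Col6a1 ratio was -0.17 in NP-like, 0.79 in chondrocyte-like and 0.61 in endothelial-like cells, the total was 0.65, 0.69 and 0.33 in chondrocyte-like, hypertrophic chondrocyte-like and endothelial-like cells, Col6a2 was 0.054, 0.19 and 0.071 in chondrocyte-like, endothelial-like and macrophage-like cells, and the readout ratio was -0.28 at 8W and -0.33 at P10.

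At Leiden resolution 0.5 the Col6a3 to Col6a1 ratio of hypertrophic chondrocyte-like cells was 0.54 and their total 0.98, and at resolution 2 they were -0.19 and 0.64. With each age clustered on its own they were 0.23 and 0.72, the chondrocyte-like total was 0.51, and in macrophage-like cells Col6a1 was 0.047, Col6a3 1.37 and the total 0.39. With a doublet score limit of 0.25 the hypertrophic values were 0.092 and 0.37, the endothelial-like total 0.34 and Col6a2 there 0.072. With a stricter cell filter (1000 genes, 10% mitochondrial UMIs) the hypertrophic values were 0.145 and 0.49 and the chondrocyte-like ones 0.86 and 0.61. Without cells carrying markers of another class, the total was 0.11 in NP-like, 0.70 in hypertrophic chondrocyte-like and 1.71 in endothelial-like cells, the Col6a3 to Col6a1 ratio of the last was -0.94, and Col6a2 was 1.36 in endothelial-like and 0.21 in macrophage-like cells.

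Chosen after the data were seen, subtraction of the blood-cell background gave totals of 0.27, 0.72, 0.81 and 0.47 in NP-like, chondrocyte-like, hypertrophic chondrocyte-like and endothelial-like cells, 0.86 for Col6a3 to Col6a1 in chondrocyte-like cells, and Col6a2 of 0.092 in chondrocyte-like and 0.17 in endothelial-like cells. Cells with 10000 to 20000 UMIs, also chosen afterwards, gave totals of 0.20, 0.75 and -0.38 in NP-like, chondrocyte-like and endothelial-like cells, Col6a3 to Col6a1 of 0.014 in NP-like and 0.77 in chondrocyte-like cells, Col6a2 of 0.26 in chondrocyte-like cells, Col6a1 of -0.42 and Col6a3 of -0.23 in endothelial-like cells, and readout ratios of -0.27 at 8W and -0.53 at P10. Without cluster 14, likewise, the chondrocyte-like total was 0.92 and Col6a2 0.35. With a readout limit of 1 UMI the ratio was -0.095 at 8W and -0.42 at P10, and with 30 UMIs -0.22 at 8W.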

Other observations

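A few small groups of cells fell under the 50 cells asked of a class at an age and are given here as values only. The 32 mural-like cells at 8W had 6126 CPM of collagen VI (5830 to 6434), with Col6a3 at 3078 CPM, Col6a1 at 1898 CPM and Col6a2 at 1150 CPM, and the 50 at P10 had 2964 CPM in total. Their Col6a3 share was 50.2% at 8W (47.8 to 52.7%) and 38.3% at P10 (35.9 to 40.7%). At 8W this was the highest of any named class, and at P10 its interval overlapped those of endothelial-like (37.6%) and hypertrophic chondrocyte-like cells (36.7%). The 24 connective fibroblast-like cells at 8W had 8321 CPM against 4089 CPM in the 283 at P10, and a Col6a3 share of 35.7% against 26.5%. Osteoblast-like cells, with 94 cells at 8W and 30 at P10, had 914 CPM at 8W and 1270 CPM at P10, and a Col6a3 share of 34.5% at 8W and 24.4% at P10.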
